A study of Homo sapiens with 4 samples.

Results

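RNA levels were compared between MCF10A cells that received the transcription factor Snail and MCF10A cells that received an empty vector (EV). MCF10A is an established, non-tumour line of human mammary epithelium that grows as a sheet of basal-like cells. The 2 libraries compared were 2 of the 4 in the series; the others carried Zeb1 or Ovol2. All 4 groups were made the same way: cells were infected with the lentivirus pHIV-ZsGreen, empty or with 1 factor, and cells positive for its green fluorescence were sorted 6 days later. The shared growth medium held 5% horse serum, 10 ng/mL EGF, 100 ng/mL cholera toxin and 0.023 IU/mL insulin. Each group was 1 library from cells of 1 line, so no spread between cultures could be measured and no difference below has a replicate check. The sources used here do not give the promoter that drove the factors, the species of their coding sequences or how many infections lie behind a library. The comparison covered the 11644 genes, of 25317 gene symbols, that reached 1 FPKM (fragment counts per unit of transcript length and of library size) in either library.

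Snail, the product of SNAI1, is a zinc finger repressor of transcription that drives the epithelial-to-mesenchymal transition (EMT), in which epithelial cells lose cell junctions and apical polarity and take on a motile, matrix-producing form. It binds E-box sequences of the form CAGGTG through its zinc fingers and recruits corepressors through its SNAG domain. The gene of E-cadherin is its textbook target. Cells that hold epithelial and mesenchymal genes side by side are said to be in a partial EMT.

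Each gene was measured as log2((Snail FPKM + 1) / (EV FPKM + 1)), positive where Snail was above EV. The added 1 FPKM understates the ratio of genes with low levels. With 1 library a group there was no test, and a gene was called higher or lower where it differed at least 2-fold by this measure (log2 beyond 1 or -1). By this rule Snail stood above EV in 117 genes (1%) and below it in 175 (1.5%). The plot of gene levels shows both sets beside the diagonal. The other 97.5% of the kept genes lay between, so a short list without a call is near the share over all genes. Of genes that reached 5 FPKM in EV or Snail, 84 stood above and 109 below. The median log2 ratio of all kept genes was 0.12, not 0. Centring on the genes at 5 FPKM or more in both libraries lowers every log2 ratio below by 0.14, and the counts then became 78 higher (0.67%) and 251 lower (2.16%), so the share of calls that are higher was 40.1% as deposited and 23.7% after centring. The called list members and leading genes named below kept their call after centring, with the exceptions given beside them. Fewer cells that express a gene cannot be told apart from less RNA of it in each cell.

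**Figure D1:**
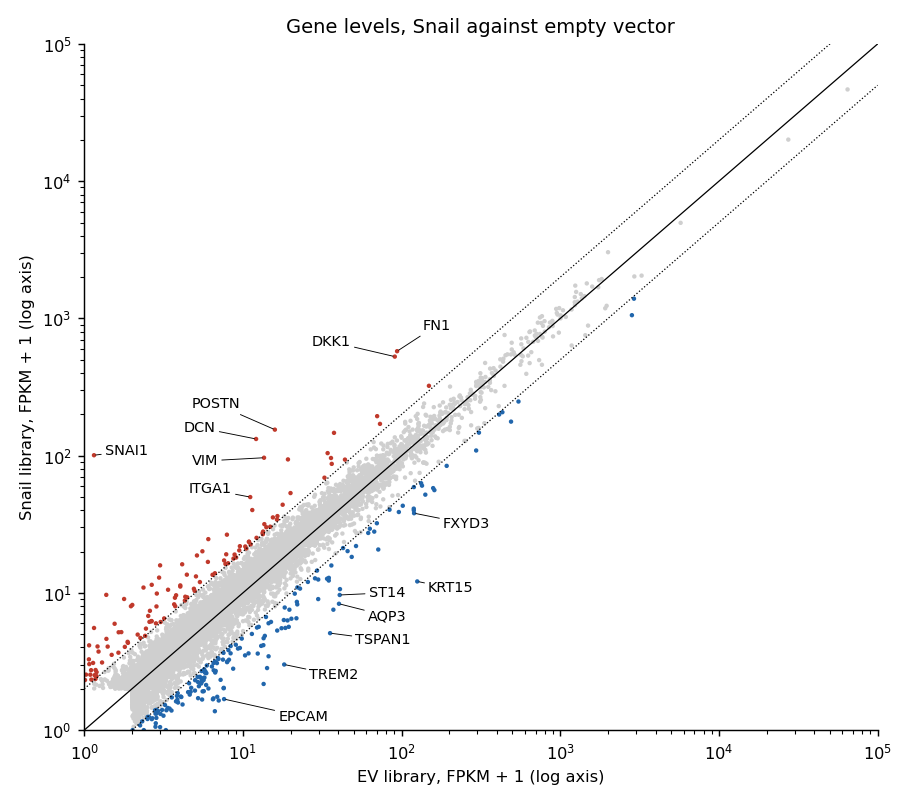
Level of each of the 11644 kept genes in the EV library (horizontal, FPKM + 1, log axis) and the Snail library (vertical, FPKM + 1, log axis). The solid line marks equal levels and the dotted lines a 2-fold difference; 117 genes lie on or above the upper dotted line (red) and 175 on or below the lower one (blue), with SNAI1, DCN, POSTN and VIM far above and KRT15, TSPAN1 and TREM2 far below.

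The spacing of the smallest nonzero values put Snail at 1.09 times the depth of EV. By the same spacing in genes with 1 annotated transcript, a transcript of 2 kilobases at 1 FPKM rests on about 58 fragments in EV, with a counting error of 13.1%, whereas an RNA of 130 bases rests on about 4. Both libraries held the basal epithelial genes of this line. KRT5 stood at 2929 FPKM in the EV library and 2022 in the Snail library, KRT14 at 195 and 204, TP63 at 23.9 and 15.7, and CDH1 at 60.4 and 46.0 FPKM. All 10 endothelial markers stayed under 1 FPKM in both libraries, with a summed level of 0.274 FPKM in EV and 0.375 in Snail. Of 15 immune cell markers 11 stayed under 1 FPKM in both, and 7 were listed at 0 in EV and 2 in Snail. The list summed to 21.9 FPKM in EV and 7.31 in Snail. Most of the EV sum came from TREM2, a lipid receptor best known from microglia and macrophages, at 17.2 FPKM in EV and 2.01 in Snail, where CD68, a lysosomal protein of macrophages, was at 2.24 FPKM against 1.76 in EV. Of 12 neural and muscle markers 10 stayed under 1 FPKM in both, and the list summed to 25.5 and 27.3 FPKM. Its 2 kept genes were TUBB3, at 23.5 and 16.2 FPKM, and MAP2, a microtubule-binding protein, at 1.66 and 10.5 FPKM.

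SNAI1 was at 0.152 FPKM in the EV, 99.7 in the Snail, 0.436 in the Zeb1 and 0.725 in the Ovol2 library, so the Snail library stood 656-fold above EV, a ratio that rests on a very low EV level. No other of the 13 kept EMT transcription factors was called. The family member SNAI2, which encodes Slug, was already at 40.9 FPKM in EV. It stood at 47.0 FPKM in Snail, 59.1 in Zeb1 and 22.6 in Ovol2. Over all kept genes the median log2 ratio to EV was -0.54 in Ovol2. The level of a typical gene thus reads lower in Ovol2, here and below. ZEB2, a repressor that also binds E-boxes, was at 0.523 FPKM in EV and 1.90 in Snail (log2 0.93, just short of 2-fold), against 4.39 in Zeb1. ZEB1 was at 0.260 FPKM in EV, 0.536 in Snail and 17.3 in Zeb1, and stayed under the filter of 1 FPKM in the Snail comparison. TWIST1, a helix-loop-helix factor, was at 5.45, 7.72, 14 and 0.609 FPKM in EV, Snail, Zeb1 and Ovol2. ETS1 was at 11.9 and 18.8 FPKM in EV and Snail, and SOX4 at 29.2 and 30.5 FPKM. The median log2 ratio of the 13 factors was 0.11, beside 0.12 over all kept genes, and changed sign to -0.03 after centring.

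Among 14 kept epithelial transcription factors, ELF3 alone was called. ELF3, an ETS factor of epithelia, was at 11.4 FPKM in EV and 2.61 in Snail (log2 -1.78), with 1.66 in Zeb1 and 63.8 in Ovol2. GRHL2, which keeps junction genes on in epithelia, was at 14.5 and 12.4 FPKM in EV and Snail and at 2.26 in Zeb1. OVOL2, the repressor of EMT factors, was at 6.32 and 5.26 FPKM in EV and Snail and at 0.563 in Zeb1. The basal epithelial factor TP63 was at 23.9 and 15.7 FPKM in EV and Snail, EHF at 24.8 and 14 FPKM, KLF5 at 41.4 and 39.5 FPKM, and the inhibitor of helix-loop-helix factors ID1 at 84.3 and 68.5 FPKM. The list's median log2 ratio was -0.26 in Snail and -1.01 in Zeb1 for the same genes, beside 0.12 and -0.11 over all kept genes. The Snail and Zeb1 comparisons share the EV library, so their values are set side by side and no likeness between them is computed.

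**Figure D2:**
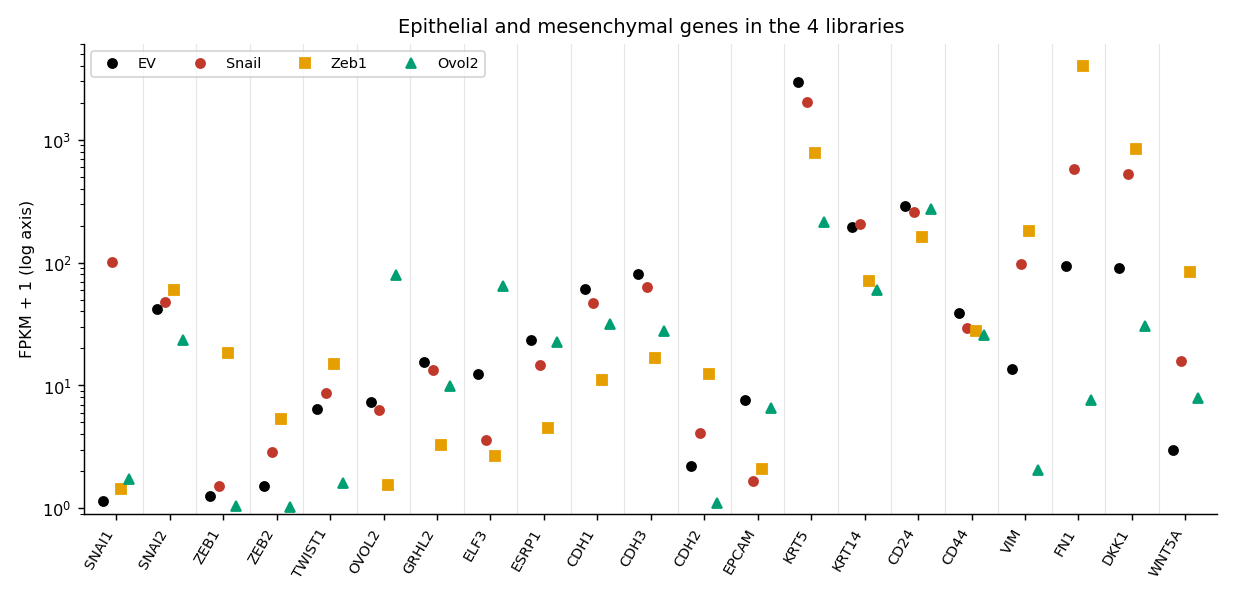
Levels of 21 epithelial and mesenchymal genes (vertical, FPKM + 1, log axis) in the EV, Snail, Zeb1 and Ovol2 libraries, 1 point for each library. For VIM, FN1, DKK1 and WNT5A the Snail point lies between EV and Zeb1, whereas for CDH1, CDH3, GRHL2 and OVOL2 it lies close to EV.

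Corepressors and regulators of Snail gave no call, and 97.5% of all kept genes were not called either. None of 26 kept genes for its corepressors and for proteins that modify or degrade it was called, and their median log2 ratio was 0.18, with a range from -0.16 to 0.67. KDM1A, the histone demethylase LSD1 that docks on the SNAG domain, was at 63.4 and 77.9 FPKM in EV and Snail. HDAC1, a histone deacetylase, was at 35.5 and 39.2 FPKM, and AJUBA, a LIM protein that bridges Snail to PRMT5, at 57.5 and 60.2 FPKM. CSNK1A1, a kinase that marks proteins for degradation, was at 74.2 and 82.3 FPKM, and COPS2, a signalosome subunit, at 25.7 and 33.9 FPKM.

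The junction lists differed in how many members were called. None of the 15 kept cadherin, catenin and nectin genes was called, beside 97.5% uncalled over all kept genes. CDH1, which encodes E-cadherin, was at 60.4 FPKM in EV, 46.0 in Snail, 10.0 in Zeb1 and 30.8 in Ovol2 (log2 -0.38 in Snail and -2.48 in Zeb1). CDH3, the P-cadherin of basal cells, followed with 79.7 FPKM in EV, 61.9 in Snail, 15.8 in Zeb1 and 26.6 in Ovol2. CDH2, N-cadherin, the mesenchymal member, was at 1.23, 3.11, 11.3 and 0.110 FPKM (log2 0.88 in Snail). The Snail library thus held far more CDH1 than CDH2 on this scale per length. Plakoglobin (JUP) was at 68.3 and 43.3 FPKM in EV and Snail, beta-catenin (CTNNB1) at 103 and 128 FPKM, alpha-catenin (CTNNA1) at 79.9 and 88.7 FPKM and vinculin (VCL) at 35.9 and 42.9 FPKM. The group's median was 0.08, and -0.06 after centring.

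Of the 12 kept tight junction genes 3 were lower in Snail and none higher, with a median of -0.44 in Snail and -1.32 in Zeb1. The claudins seal the space between cells. CLDN7 was at 21.0 FPKM in EV and 7.24 in Snail (log2 -1.42), below the 13.6 FPKM of the Zeb1 library. CLDN4 was at 8.31 and 2.93 FPKM in EV and Snail (log2 -1.24), and the adhesion receptor CXADR at 3.51 and 0.892 FPKM (log2 -1.25). CLDN1, the most abundant claudin here, was at 252 and 127 FPKM and lay just short of the rule with log2 -0.98, passing it after centring. The adhesion molecule F11R (JAM-A) was at 41.4 and 43.4 FPKM, and the scaffold protein TJP1 at 10.7 and 13.4 FPKM. CLDN7, CXADR and CLDN4 thus lay furthest below EV in this group.

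Polarity and apical trafficking genes held 5 of 22 members called lower and none higher (median -0.22, with -1.41 in Zeb1). CRB3, the Crumbs protein that sets the apical membrane, was at 8.57 and 2.97 FPKM in EV and Snail (log2 -1.27). LLGL2, a basolateral polarity protein, was at 8.83 and 3.64 FPKM (log2 -1.08). RAB25, a GTPase of apical recycling, was at 28.8 and 11.5 FPKM (log2 -1.25), MAL2, a carrier of apical transport, at 12.5 and 3.16 FPKM (log2 -1.69), and the motor MYO5C at 2.10 and 0.403 FPKM (log2 -1.14). The Par complex kinase PRKCI was at 35.9 and 44.5 FPKM, EPS8L2 at 51.0 and 50.3 FPKM and the basolateral scaffold DLG1 at 16.4 and 25 FPKM. Of 11 kept genes reported in the literature as repressed by Snail (median -0.38), CLDN4, CLDN7 and CRB3 were called lower and none was higher. These genes are also counted in the junction and polarity lists above. The 8 others included CDH1, CLDN1, KRT18 at 96.1 and 91.1 FPKM, MUC1 at 4.95 and 3.76 FPKM and PEBP1, the RAF inhibitor, at 116 and 133 FPKM.

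The promoters of these genes were read for the letters Snail is known to bind. RefSeq sequence of build GRCh38.p14 was used, 250 bases before each annotated transcript start, whereas expression was built on hg19. The motif was CAGGTG or its reverse complement CACCTG, so that both strands are covered. Of the 13 junction, polarity, surface, protease and epithelial factor genes called lower, 8 were matched to a promoter, and 6 of the 8 held the motif. Of all kept members of these lists, called or not, 21 of the 55 matched held it (38.2%) and 9 held 2 or more copies (16.4%), so the motif was also frequent in the lists as a whole. Shown are 4 of the 6, which span the tight junction, polarity and factor genes called lower; MYO5C and TSPAN13 held 1 copy each. The windows run 5′ to 3′ on the gene's strand and end at the base before the start, and capitals mark each motif.
CRB3, chr19:6464021-6464270, plus strand: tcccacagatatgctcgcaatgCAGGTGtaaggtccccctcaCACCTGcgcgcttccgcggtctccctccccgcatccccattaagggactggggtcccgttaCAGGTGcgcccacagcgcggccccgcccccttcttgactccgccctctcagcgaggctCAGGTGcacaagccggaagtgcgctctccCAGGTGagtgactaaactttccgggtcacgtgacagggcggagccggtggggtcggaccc
CLDN7, second annotated start, chr17:7262479-7262728, minus strand: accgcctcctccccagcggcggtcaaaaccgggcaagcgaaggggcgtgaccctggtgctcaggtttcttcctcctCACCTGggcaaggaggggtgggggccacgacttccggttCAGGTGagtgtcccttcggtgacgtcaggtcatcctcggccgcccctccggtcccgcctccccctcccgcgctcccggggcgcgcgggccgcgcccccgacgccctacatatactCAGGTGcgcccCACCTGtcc
RAB25, chr1:156060910-156061159, plus strand: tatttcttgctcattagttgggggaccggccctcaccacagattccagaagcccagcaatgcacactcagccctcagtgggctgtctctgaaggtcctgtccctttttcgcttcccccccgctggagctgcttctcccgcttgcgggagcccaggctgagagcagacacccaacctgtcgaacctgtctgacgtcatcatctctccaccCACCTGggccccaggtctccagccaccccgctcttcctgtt
ELF3, chr1:202010337-202010586, plus strand: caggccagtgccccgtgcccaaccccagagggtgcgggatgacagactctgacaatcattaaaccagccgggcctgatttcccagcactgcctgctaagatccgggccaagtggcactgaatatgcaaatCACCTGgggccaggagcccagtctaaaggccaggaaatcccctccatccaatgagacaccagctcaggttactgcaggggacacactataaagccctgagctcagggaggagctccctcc
The CRB3 window held 5 copies of the motif, whose first bases lay 228, 208, 147, 89 and 60 bases before the start. CLDN7 held 4 at its second annotated start, 174, 135, 20 and 9 bases before it, and none at its first. RAB25 held 1 at 41 bases and ELF3 1 at 120 bases before the start. CLDN4, also lower, held none in this window, which says only that these letters are not there.

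Over all genes, the motif was found in 29 of 72 matched genes called lower (40.3%), in 16 of 88 called higher (18.2%) and in 1857 of 9188 kept (20.2%), small RNAs left out, where a gene with several starts counts once if any start has it. Windows with 2 or more copies were found for 10 of the 72 lower genes (13.9%), for 0 of the 88 higher genes and for 2.55% of those kept. Of all 35116 promoter windows of the same length in the table, 17.5% held the motif. The wider form CANNTG, which contains both, was in 75% of the lower, 60.2% of the higher and 60.3% of the kept genes. Of 4 higher genes read singly, VIM, FN1 and DKK1 held neither form, and POSTN held 2 copies of the wider form and none of the motif. Matches describe letters and not binding, and these shares were not tested.

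Epithelial surface and protease genes were among the lowest ratios. Of 11 kept epithelial surface antigens 3 were lower and none higher (median -0.54). EPCAM, the epithelial adhesion molecule used to sort carcinoma cells, was at 6.61 FPKM in EV, 0.683 in Snail, 1.08 in Zeb1 and 5.51 in Ovol2 (log2 -2.18), the lowest level of the 4 libraries being that of Snail. TSPAN1, a tetraspanin, was at 34.4 and 4.09 FPKM in EV and Snail (log2 -2.80), close to its 4.32 FPKM in Zeb1, and TSPAN13 was at 8.02 and 3.19 FPKM (log2 -1.11). The tetraspanin CD9 was at 113 and 73.5 FPKM and CD24 at 289 and 259 FPKM, and neither was called. Of 5 kept surface proteases and inhibitors, ST14 (matriptase) was lower, at 39.7 and 8.65 FPKM in EV and Snail (log2 -2.08) and 7.68 in Zeb1. Its inhibitors SPINT1 and SPINT2 were at 51.4 and 35.9 FPKM and at 226 and 146 FPKM, and its partner protease PRSS8 (prostasin) at 12.1 and 13.0 FPKM.

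Splicing regulators and anchoring junctions gave 1 call in all, and 97.5% of all kept genes were not called either. None of 11 kept epithelial or mesenchymal splicing regulators was called. ESRP1, which keeps epithelial isoforms, was at 22.4 FPKM in EV, 13.8 in Snail, 3.51 in Zeb1 and 21.6 in Ovol2. None of 12 kept desmosome genes was called (median -0.07 in Snail and -0.90 in Zeb1). Desmoplakin (DSP) was at 142 and 162 FPKM in EV and Snail, DSG3 at 105 and 94.6 FPKM, DSG2 at 61.6 and 79.7 FPKM, DSC3 at 68.6 and 62.9 FPKM and PERP at 311 and 246 FPKM. Of 19 hemidesmosome and basement membrane genes, COL4A1 alone was called, at 31.7 and 68.1 FPKM (log2 1.08), and it came under 2-fold after centring. The hemidesmosome integrin ITGA6 and ITGB4 were at 249 and 217 FPKM and at 134 and 116 FPKM, COL17A1 at 192 and 188 FPKM, and the laminin chain LAMB3 at 273 and 207 FPKM.

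Keratins, the intermediate filaments of epithelia, differed by member. KRT15, a keratin of basal progenitor cells, had the lowest ratio of all genes at 5 FPKM or more, with 125 FPKM in EV, 11.1 in Snail, 11.2 in Zeb1 and 560.3 in Ovol2 (log2 -3.37). It was 11.2-fold lower in Snail than in EV on the plain FPKM scale. KRT6B, a keratin of stressed epidermis, was at 5.54 and 1.73 FPKM in EV and Snail (log2 -1.26). The 5 other kept basal and stress keratins were not called. KRT17 was at 5736 and 4972 FPKM, KRT5 at 2929 and 2022 FPKM, KRT6A at 559.6 and 459 FPKM, KRT14 at 195 and 204 FPKM and KRT16 at 41.4 and 26.1 FPKM. In Zeb1 the main basal keratins stood lower, KRT5 at 771 and KRT14 at 70.0 FPKM. The other keratin list, mostly of simple and suprabasal types, had 8 kept members. Its KRT4 and KRT13, of wet stratified epithelia, were lower at 4.18 and 1.44 FPKM and at 4.80 and 1.68 FPKM in EV and Snail. KRT7, KRT8 and KRT81 stood above EV without reaching 2-fold, at 1242 and 1733 FPKM, at 102 and 147 FPKM and at 493 and 664 FPKM, and KRT18 is given above.

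Genes of squamous differentiation and epithelial defence had the lowest median of the lists, -0.78 over 17 genes, of which 7 were lower and none higher. SPRR1B, a cornified envelope precursor, was at 5.66 and 0.373 FPKM in EV and Snail (log2 -2.28). TGM1, the enzyme that cross-links the envelope, was at 4.00 and 1.31 FPKM, the protease KLK5 at 5.89 and 0.749 FPKM, and LY6D at 15.4 and 4.32 FPKM. The calprotectin subunits S100A8 and S100A9 were at 4.53 and 0.670 FPKM and at 16.5 and 4.52 FPKM, and CRABP2, a retinoic acid carrier, at 18.6 and 6.54 FPKM. S100A14 was at 409 and 229 FPKM and SLPI, a protease inhibitor of secretions, at 162 and 137 FPKM, neither called. SERPINB13, an epithelial serpin, was lower at 12.5 and 1.17 FPKM (log2 -2.64), the only 1 of 6 kept clade B serpins called, beside the abundant SERPINB5 (maspin) at 250.4 and 237 FPKM.

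Of 17 kept genes for epithelial water, ion and nutrient transport 5 were lower and none higher. The water and glycerol channel AQP3 was at 39.3 and 7.33 FPKM in EV and Snail (log2 -2.27), the membrane protein TMC4 at 6.04 and 0.643 FPKM (log2 -2.10) and CLCA2, a p53 target of basal mammary cells, at 28.8 and 8.01 FPKM (log2 -1.73). FXYD3, a regulator of the sodium pump, was at 119 and 37.1 FPKM (log2 -1.65). The glucose transporter SLC2A1 (GLUT1) was at 32.9 FPKM in EV, 11.7 in Snail, 24.7 in Zeb1 and 163 in Ovol2. The sodium pump subunit ATP1B3 was at 139 and 87.8 FPKM and the sodium channel subunit SCNN1A at 52.4 and 46.5 FPKM.

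After SNAI1, matrix genes held 4 of the 5 highest ratios. Of 19 kept matrix glycoproteins and proteoglycans 6 were higher and none lower (median 0.60, and 0.46 after centring). DCN (decorin, a collagen-binding proteoglycan) was at 11.1 FPKM in EV, 131 in Snail and 604 in Zeb1 (log2 3.45 in Snail). POSTN (periostin) was at 14.9, 154 and 509.8 FPKM (log2 3.28), and fibronectin (FN1) at 92.7, 576 and 3982 FPKM (log2 2.62). For each of these genes the Snail level lay well above EV and below Zeb1. Fibrillin-1 (FBN1), a microfibril protein, was at 0.377 and 8.67 FPKM in EV and Snail (log2 2.81), FBLN5, an elastic fibre protein, at 0.137 and 2.09 FPKM (log2 1.44), and MFAP5 at 1.85 and 6.96 FPKM (log2 1.48). TGFBI was at 1999 and 3038 FPKM, EFEMP1 at 122 and 193 FPKM, FAP, a fibroblast surface protease, at 42.0 and 64.6 FPKM and THBS1 at 63.5 and 75.2 FPKM, all uncalled. Syndecan-1 (SDC1), an epithelial proteoglycan, was at 156 and 117 FPKM.

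Collagens and their modifying enzymes held 3 higher genes of 20 and none lower (median 0.34 in Snail, 0.99 in Zeb1). The collagen cross-linker LOX was at 33.2 FPKM in EV, 103 in Snail and 101 in Zeb1 (log2 1.61), so that Snail and Zeb1 stood at nearly the same level. COL3A1, a fibrillar collagen, was at 0.0699, 2.28 and 59.5 FPKM (log2 1.62), far lower in Snail than in Zeb1. The basement membrane collagen COL4A1 is given above, and its partner COL4A2 was at 45.8 and 78.5 FPKM. PLOD2, a lysyl hydroxylase, was at 65.6 and 125 FPKM, the collagen chaperone SERPINH1 at 70.4 and 89.2 FPKM and COL12A1 at 36.8 and 52.9 FPKM.

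Vimentin and the contractile cytoskeleton had 3 higher genes of 20 and none lower (median 0.36). Vimentin (VIM), the mesenchymal intermediate filament, was at 12.6 FPKM in EV, 95.6 in Snail, 181 in Zeb1 and 1.05 in Ovol2 (log2 2.83), a plain ratio of 7.59 to EV. Transgelin (TAGLN) was at 148 and 322 FPKM in EV and Snail (log2 1.12) and came under 2-fold after centring. The myosin light chain MYL9 was at 6.85 and 18.1 FPKM (log2 1.28). The tropomyosins TPM1, TPM2 and TPM4 were at 124 and 184 FPKM, at 113 and 178 FPKM and at 116 and 154 FPKM, filamin A (FLNA) at 200.2 and 234 FPKM and non-muscle myosin MYH9 at 159 and 194 FPKM.

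Of 13 kept integrins 1 was higher and none lower, with a median of -0.19, which came to 0.01 where the filter on low values was dropped or set to 5 FPKM. ITGA1, a subunit of the collagen receptor, was at 10.1 FPKM in EV, 48.9 in Snail and 35.2 in Zeb1 (log2 2.17), higher in Snail than in Zeb1. Its partner ITGB1 was at 201 and 318 FPKM in EV and Snail, ITGAV at 76.0 and 117 FPKM, ITGA3 at 99.1 and 84.6 FPKM and the epithelial ITGB6 at 86.5 and 50.1 FPKM. Matrix proteases and inhibitors were called both ways, with 3 of 22 higher and 3 lower. The metalloproteases ADAMTS1 and ADAMTS6 were at 0.885 and 3.32 FPKM and at 1.59 and 6.40 FPKM in EV and Snail. The inhibitor TIMP2 was at 12.4 and 25.8 FPKM, at the 2-fold line with log2 1.00, and it lost its call after centring. Lower were the stromelysin MMP3, at 2.01 and 0.0519 FPKM, the collagenase MMP13, at 5.53 and 2.08 FPKM, and the urokinase PLAU, at 33.8 and 11.9 FPKM (log2 -1.43), whose level in Zeb1 was 34.3 FPKM. The membrane protease MMP14 was at 113 and 106 FPKM.

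**Figure D3:**
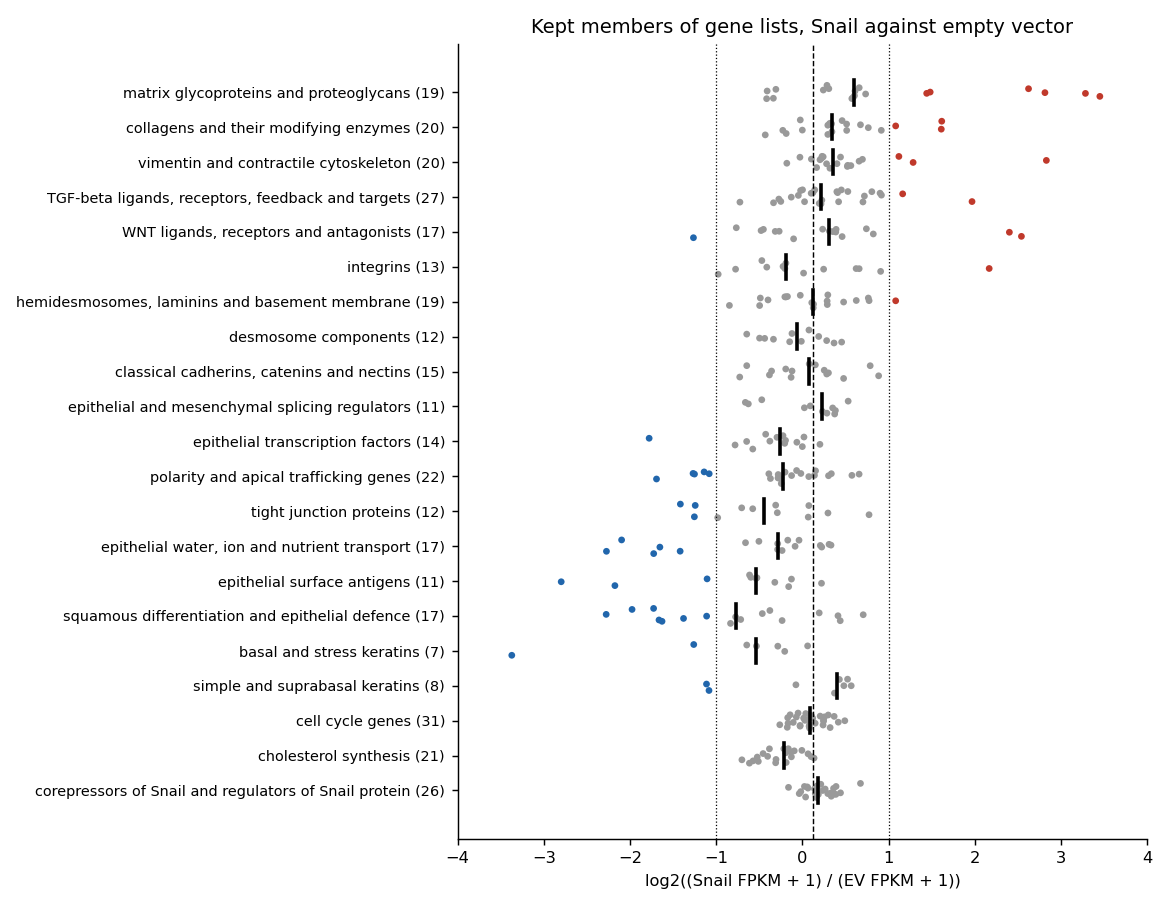
Log2 ratio of each kept member (points) of 21 gene lists, Snail against EV, with the number of kept members in brackets, the list's median (black bar), the median of all kept genes (dashed, 0.12) and the 2-fold lines (dotted). Red and blue points are members called higher and lower; matrix, collagen and cytoskeleton lists hold red points and no blue ones, and tight junction, polarity, surface, transport and squamous lists hold blue points and no red ones, with medians from 0.60 for matrix to -0.78 for squamous genes.

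The signalling lists held calls both ways, several of them large, beside 1% higher and 1.5% lower over all kept genes. In the TGF-beta list 2 of 27 were higher and none lower. The secreted glycoprotein FSTL1 was at 36.5 FPKM in EV, 146 in Snail and 226 in Zeb1 (log2 1.97), and the co-receptor TGFBR3 (betaglycan) at 2.69 and 7.25 FPKM in EV and Snail (log2 1.16). The receptors TGFBR1 and TGFBR2 were at 22.4 and 39.8 FPKM and at 25.8 and 28.5 FPKM, and the pathway's common targets CTGF and CYR61 at 33.1 and 62.5 FPKM and at 48.9 and 81.1 FPKM. Ligand TGFB1 was at 8.81 and 10.5 FPKM, named here after its values were seen. In the WNT list 2 of 17 were higher and 1 lower. DKK1, a secreted WNT antagonist, was at 89.6 FPKM in EV, 526 in Snail, 845 in Zeb1 and 29.7 in Ovol2 (log2 2.54). WNT5A, a ligand of beta-catenin-independent signalling, was at 2.01, 14.9, 82.4 and 6.85 FPKM (log2 2.40), and WNT4 was lower at 2.45 and 0.435 FPKM in EV and Snail. The antagonist SFRP1 was at 46.3 and 64.0 FPKM, and the receptor FZD2 at 8.09 and 14.2 FPKM.

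Among 29 kept receptor tyrosine kinases and EGF family ligands, ROS1 was higher, at 34.9 and 95.1 FPKM in EV and Snail (log2 1.42), and HBEGF, a ligand of the EGF receptor, lower at 5.47 and 0.678 FPKM (log2 -1.95). EGFR itself was at 55.6 and 47.9 FPKM, MET at 37.1 and 47.1 FPKM, the collagen receptor DDR1 at 47.4 and 37.6 FPKM and AXL, named after its values were seen, at 19.5 and 33.4 FPKM. Of 21 lipid mediator receptor and motility genes, S1PR3, a receptor for sphingosine-1-phosphate, was at 0.783 and 8.03 FPKM (log2 2.34), and ARHGAP29, a RhoA inactivator, at 7.06 and 15.4 FPKM (log2 1.03, under 2-fold after centring). RHOC was at 93.1 and 106 FPKM and caveolin-1 (CAV1) at 231 and 269 FPKM. IGFBP3, which carries insulin-like growth factors, was at 18.2 FPKM in EV, 92.9 in Snail and 735 in Zeb1 (log2 2.29). IGFBP2 was lower at 4.22 and 0.709 FPKM in EV and Snail, and IGFBP6 was at 39.5 and 44.9 FPKM.

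The partial EMT programme described from single cells of head and neck tumours had 45 kept members, of which VIM and EMP3 were higher and PLAU lower, with a median of 0.24 against 0.12 over all genes and 0.10 after centring. EMP3, a small membrane protein, was at 2.37 and 9.54 FPKM in EV and Snail (log2 1.64). Among the programme's abundant members, TGFBI and LGALS1 (galectin-1, at 743 and 1015 FPKM) were above EV by log2 0.60 and 0.45. Markers linked to EMT and mammary stem or progenitor cells gave 2 lower calls among 16 and none higher, beside 1.5% lower over all kept genes. CD44, the hyaluronan receptor, was at 38.2 FPKM in EV, 28.4 in Snail, 27.0 in Zeb1 and 24.8 in Ovol2, and CD24 at 289, 259, 161 and 271. Neither gene reached 2-fold in Snail. The aldehyde dehydrogenase ALDH1A3 was lower at 12.7 and 3.86 FPKM in EV and Snail (log2 -1.50), and the Notch ligand DLL1 at 6.98 and 2.16 FPKM (log2 -1.33). NOTCH1 was at 33.1 and 21.8 FPKM.

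None of 31 cell cycle genes was called, beside 97.5% uncalled over all kept genes. The list's ratios ran from -0.26 to 0.49. Its median was 0.08 (-0.06 after centring), beside -0.93 for the same genes in Zeb1. PCNA was at 61.2 FPKM in EV, 55.3 in Snail and 28.7 in Zeb1, and TOP2A at 40.7, 54.7 and 29.3 FPKM. Among 17 cell cycle inhibitor and p53 target genes CDKN1C (p57) was higher, at 2.73 and 8.22 FPKM in EV and Snail, and CDKN1A (p21) was at 77.1 and 74.7 FPKM. None of 21 cholesterol synthesis genes was called, but 18 of the 21 lay below 0, as did 3777 of all 11644 kept genes, with a median of -0.22 in Snail and -1.03 in Zeb1. FDPS was at 82.7 and 63.2 FPKM in EV and Snail.

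Calls in the immune signalling and metabolism lists stand beside shares of 1% higher and 1.5% lower over all kept genes. Of 19 cytokine and chemokine genes TNFSF10 (TRAIL, a death ligand) was lower at 70.3 and 19.7 FPKM (log2 -1.78), and CXCL16 at 2.35 and 0.451 FPKM. CXCL1, a neutrophil attractant, was at 9.05 FPKM in EV and 12.6 in Snail, against 168 in Zeb1. Of 25 interferon-stimulated genes IFI44L was higher at 1.66 and 5.23 FPKM, and B2M was at 488 and 546 FPKM. Of 22 glycolysis and hypoxia genes only SLC2A1 was called, and GAPDH was at 798 and 801 FPKM and LDHA at 249 and 237 FPKM.

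Further genes among the 25 highest and 25 lowest ratios lay outside the lists. TGM2, tissue transglutaminase, was at 1.36 and 9.93 FPKM in EV and Snail (log2 2.21), the growth arrest gene GAS1 at 5.05 and 23.6 FPKM (log2 2.03) and RGS2, a brake on G protein signalling, at 10.5 and 39.1 FPKM (log2 1.81). Transporters stood among them, the fructose carrier SLC2A5 at 1.01 and 7.17 FPKM and the cationic amino acid carrier SLC7A2 at 3.14 and 15.2 FPKM. PAPSS2, which makes the sulfate donor for proteoglycans, was at 0.969 and 6.99 FPKM. The adaptor PID1 was at 1.96 and 11.9 FPKM, the protocadherin PCDH9 at 4.55 and 19.1 FPKM, DNER, a transmembrane protein with EGF repeats, at 4.13 and 17.7 FPKM, PRR5L at 1.87 and 8.89 FPKM and the long non-coding LINC01279 at 6.93 and 25.6 FPKM. The Zeb1 library was also above EV for each of these 11 genes, from 4.38 FPKM for SLC2A5 to 66.6 FPKM for GAS1. The genes were chosen for high ratios to the same EV library, so this count is partly built in. No likeness between Snail and Zeb1 is read from it. Lower were ALDH3A1, an aldehyde dehydrogenase of surface epithelia, at 13.5 and 2.45 FPKM (log2 -2.07), the laminin receptor BCAM at 5.52 and 0.704 FPKM, the retinol dehydrogenase RDH16 at 6.56 and 1.02 FPKM, FGFBP1, which releases fibroblast growth factors from matrix, at 18.4 and 4.66 FPKM, and epiplakin (EPPK1), a keratin-binding plakin, at 20.7 and 5.53 FPKM.

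**Figure D4:**
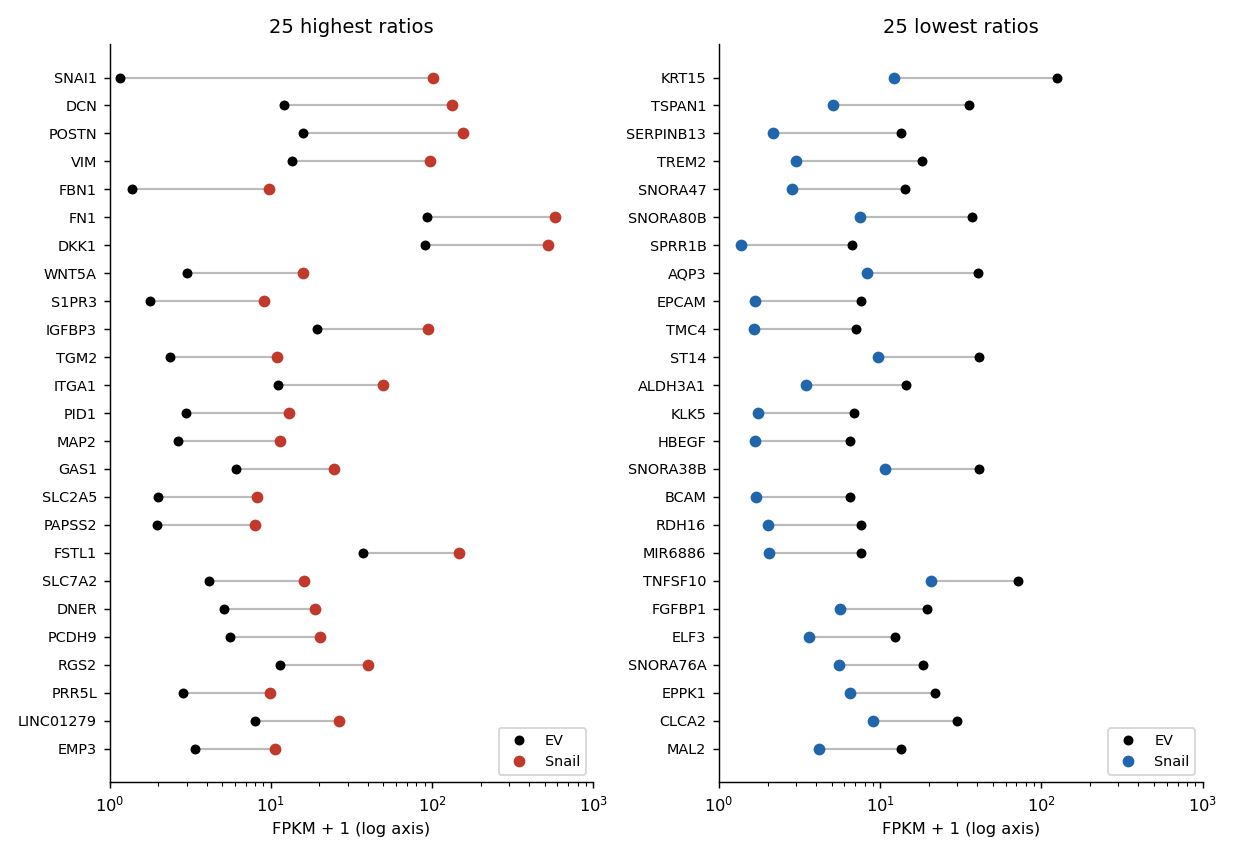
Levels in the EV library (black) and the Snail library (coloured) of the 25 genes with the highest and the 25 with the lowest log2 ratios among genes that reached 5 FPKM in EV or Snail (horizontal, FPKM + 1, log axis). Matrix and signalling genes lead the higher set after SNAI1, and KRT15, TSPAN1, SERPINB13 and TREM2 lead the lower set, which also holds SNORA47, SNORA80B, SNORA38B and SNORA76A.

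At the 2-fold line the rule divided genes of nearly equal ratio. Just past it on the higher side lay TIMP2, DIXDC1, TEAD1, PHF20 and KCNIP3, with log2 ratios of 1.00 to 1.02, and just short of it CNPY4, SLC39A8, SGK1, TIMP1 and SLC46A3, down to 0.98. On the lower side C16orf74, AKR1C2, SCARNA1, SNORA74A and C1orf116 lay just past it, from -1.01 to -1.03, and PCBD1, SNORA84, LYPD3, FABP4 and SNORA9 just short of it, up to -0.98. SGK1, a kinase induced by serum and glucocorticoid, was at 44.1 and 88.2 FPKM, and FABP4, a fatty acid carrier, at 82.8 and 41.1 FPKM.

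Small RNA genes formed a large share of the lower calls. Of the 175 lower genes 65 were small nucleolar, Cajal body or microRNA entries, against 3 of the 117 higher genes. Of all 11644 kept genes 419 were such entries. How well each library recovered short RNA was not tested. The H/ACA small nucleolar RNAs, which guide pseudouridylation, had a median log2 ratio of -0.82 over 80 genes, with 30 lower (37.5%) and none higher. The C/D class, which guides methylation of ribose, had a median of 0.00 over 120 genes, with 4 lower and none higher. Cajal body RNAs stood at -0.26 over 20 genes with 3 lower, and microRNA entries at -0.33 over 199 genes with 28 lower and 3 higher. Protein-coding genes had a median of 0.13, with 109 higher and 104 lower of 10646. SNORA63, the most abundant H/ACA RNA called and named for that after its values were seen, was at 2914 and 1392 FPKM in EV and Snail, and SNORA47 had the lowest ratio of the class at 13.2 and 1.83 FPKM. RMRP and RPPH1, catalytic RNAs of a pair of ribonucleases, were not called but held 24.6% of all FPKM in EV and 18.7% in Snail. Any part of RMRP and RPPH1 in the small RNA values was not tested. Fragments assigned to microRNA entries can stem from hairpin or host transcripts, so these values are not levels of mature microRNAs.

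**Figure D5:**
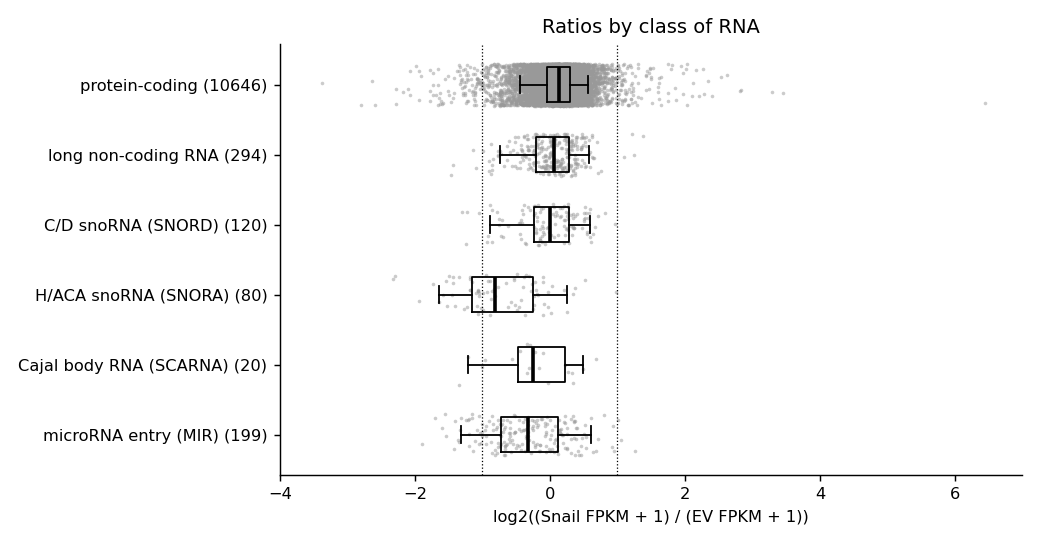
Log2 ratio of Snail to EV (horizontal) by class of RNA, with the number of kept genes in brackets; points are genes, boxes the quartiles with the median, whiskers the 5th and 95th percentiles, and dotted lines mark 2-fold. H/ACA small nucleolar RNAs have a median of -0.82 against 0.13 for protein-coding genes.

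A few genes set the Snail library apart from all 3 others, by a rule added after the data were seen. Of 7370 genes at 5 FPKM or more in Snail, 4 stood 2-fold or more above each other library. Besides SNAI1 these were MFAP5, the placental alkaline phosphatase ALPP and the monocarboxylate carrier family member SLC16A14. ALPP was at 16.8 FPKM in EV, 42.9 in Snail, 8.59 in Zeb1 and 4.98 in Ovol2. SLC16A14 was at 7.86, 18.0, 4.66 and 1.42 FPKM and came under 2-fold against EV after centring, and MFAP5 at 1.85, 6.96, 1.79 and 1.80. Of 4480 genes at 5 FPKM or more in each other library, 4 stood 2-fold or more below all 3. The chaperone clusterin (CLU) was at 9.85 FPKM in EV, 2.62 in Snail, 21.6 in Zeb1 and 12 in Ovol2. The sorting receptor SORT1 was at 5.86, 2.08, 15.1 and 8.95 FPKM, and the death gene PMAIP1 (NOXA) at 7.17, 2.26, 6.2 and 12.6. SLC2A1, given above, was the fourth. With 1 library a group, whether these differences belong to the factor or to the library cannot be told apart.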

How the data were processed

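RNA was sequenced from sorted MCF10A cells, 1 library per group, with a TruSeq RNA kit after column extraction, per the labels' protocols. The deposited tables give 1 value per gene and library. These were taken as FPKM made by the authors with TopHat, Cufflinks and Cuffdiff on hg19, tools that the submitters' processing notes name without versions. No header names the unit, and the sources used here give neither annotation nor strand setting. The tables also hold the authors' adjusted p-value, per the file headers, from 1 library against 1, used only as an alternative.

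Rows of 1 symbol were summed (25360 rows, 25317 symbols), and the EV values were identical in all tables. The log2 ratio used a pseudocount of 1 FPKM and a filter of 1 FPKM in either library, and 2-fold was called higher or lower, with no test and no p-value. Python 3.11.15, pandas 2.3.3 and numpy 2.4.6 were used. The steps were tested on simulated data for genes at 5 FPKM or more in EV, with large planted differences and counting noise alone. That test did not cover differences near 2-fold, lower levels, the few fragments of small RNAs or spread between cultures. RNA classes came from RefSeq, whose names matched 11499 of the 11644 kept genes, its promoter table matched 9188 of the 11225 kept genes other than small RNAs, and transcript lengths from GENCODE 29, used for lengths alone. The members and the 38 gene lists were chosen with earlier results of these data known. The text names the markers SNAI1, VIM, POSTN, KRT15 and EPCAM, the 25 highest and 25 lowest ratios at 5 FPKM or more, each called list member with up to 6 of the most abundant others, a set of EMT genes in every library, and 5 genes on each side of the 2-fold line. Some genes that the rule takes are not reported here. Genes outside this rule are said to be named after their values were seen.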

Additional observations from a re-analysis of the deposited data

How the results depend on the processing

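The comparison rests on 1 library a group, so the spread between cultures is unknown and every count describes these libraries only. As deposited, 117 genes were higher and 175 lower in Snail. With a pseudocount of 0.1 FPKM the counts were 217 and 361, and with 5 FPKM they were 37 and 60. A filter of 5 FPKM gave 84 and 109, and leaving out small RNA genes gave 112 and 108. That setting left out a wider set of names than the 419 entries above, and kept 11200 genes. Without the 419 entries alone the counts were 114 and 110. The 1.5-fold rule gave 534 and 508, and the 3-fold rule 36 and 37. Upper quartile scaling gave 80 and 232, a share of higher calls of 25.6%, and lowered the median of all kept genes by 0.13 on the log2 scale. Scaling to the total without RMRP and RPPH1 gave 105 and 189, the length correction 122 and 136, and dropping the filter changed neither count. In the authors' deposited table, rows with an adjusted p-value under 0.05 and a 2-fold difference numbered 114 and 168. That p-value passed for 81.0% of all rows and does not measure a spread between cultures.

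The alternatives were followed for 91 called genes that belong to a list or to the 25 highest or lowest ratios. Changes of filter and leaving out small RNAs do not alter a gene's ratio, so they could not change a call. Of these 91 genes, 53 stayed past 2-fold in the same direction under each alternative that gave them a value. None changed sign, but genes chosen for a 2-fold difference left little room for that. A pseudocount of 5 FPKM brought 37 of them under 2-fold, among them CLDN4, CRB3, CXADR, LLGL2, SPRR1B, KLK5, HBEGF, COL3A1 and EMP3, whereas centring and upper quartile scaling each brought ARHGAP29, COL4A1, TAGLN and TIMP2 under it. The medians of the EMT factor, cadherin and catenin, hemidesmosome and cell cycle lists changed sign under both of these scalings. Of 10 groups of genes by transcript length the shortest had a median ratio of -0.00 and the longest 0.20. The shortest group held 75 lower and 10 higher calls, the second shortest 6 lower and 8 higher, and the longest 7 lower and 20 higher. Small RNA genes, with 65 of the 175 lower calls, were not left out of these groups. No paired analysis was possible because each group has 1 library.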
